A study of Mus musculus with 18 samples.

Results

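CXCL12-abundant reticular cells (CAR cells) of adult mouse bone marrow (BM) were described across all genes and set against the other stromal cells of the same library. The members were the 359 cells to which the authors' deposited table gives the CAR cluster code in the adult stromal library, of 6267 adult stromal cells and 56201 cells in the whole series. The study sorted CD45-Ter119- stromal cells and CD45+ lineage-negative c-Kit+ hematopoietic cells from BM of C57B6/J mice at E16.5, E18.5, birth (P0) and adulthood, and sequenced 3′ ends of transcripts from single cells together with oligonucleotide-tagged antibodies (CITE-Seq). Bones were crushed before the sort, and for the stromal cells they were also digested with collagenase. Each library held cells pooled from several mice, and the labels name no treatment or allele. There was 1 adult stromal library, so that no difference below has a replicate check and no p-value is given. The code was assigned by clustering on the same transcripts, so the transcript differences between CAR cells and other cells describe the cluster and do not test it. The antibody counts did not enter that clustering.

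CAR cells are perivascular reticular cells of adult marrow that lie mostly along sinusoids. They secrete CXCL12, the chemokine that holds CXCR4-bearing hematopoietic stem and progenitor cells and B-cell precursors in the marrow, and stem cell factor (Kitl), the ligand of c-Kit. They carry the leptin receptor (Lepr) and can give rise to marrow adipocytes and osteoblasts, and the transcription factors Ebf3 and Foxc1 are known to maintain them.

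The 359 CAR cells made up 5.73% of the adult stromal cells (5.17–6.33%, exact Clopper-Pearson 95% interval) and 3.27% of their unique molecular identifiers (UMIs), 3000474 UMIs in all. A CAR cell held a median of 7185 UMIs, against 12229.5 in the 5908 other cells, and the median share of mitochondrial UMIs was 3.32% against 3.58%. The other cells lay in 15 clusters, of which 14 held at least 30 cells and were used one by one. Levels are CPM, the summed UMIs of a gene in a group scaled to the usual fixed total of UMIs, with exact Poisson 95% intervals in parentheses where given, and all intervals cover counting error only. CPM of 3′ counts was used to compare a gene between cells and not to compare genes with each other. Of the adult stromal barcodes, 84 recurred in another library of the series, 3 of them from CAR cells.

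The deposited code fitted its defining markers, Cxcl12, Lepr and Kitl, which were among the genes clustered, so that their levels are a description. Cxcl12 stood at 20241 CPM (20081–20403) in CAR cells and at 231 CPM (228–234) in the other adult stromal cells, a ratio of 87.5 (86.1–88.9). Across the 14 other clusters Cxcl12 ran from 19.3 CPM in cluster C9 to 1936 CPM in the cluster coded AECs, followed by 723 CPM in F8. CAR cells lay above every other cluster, 10.5 times above AECs, and they held 74.7% of all Cxcl12 UMIs of the library. Lepr stood at 794 CPM (762–826) against 22.5 CPM (21.5–23.5), a ratio of 35.3, and its next highest cluster was F10 at 51.2 CPM. For Kitl the level was 1005 CPM (969–1041) against 25.2 CPM (24.2–26.3), a ratio of 39.8. Kitl was the least separate of these markers, since AECs reached 468 CPM. With each other cluster weighted equally, the Kitl ratio was 17.3.

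**Figure D1:**
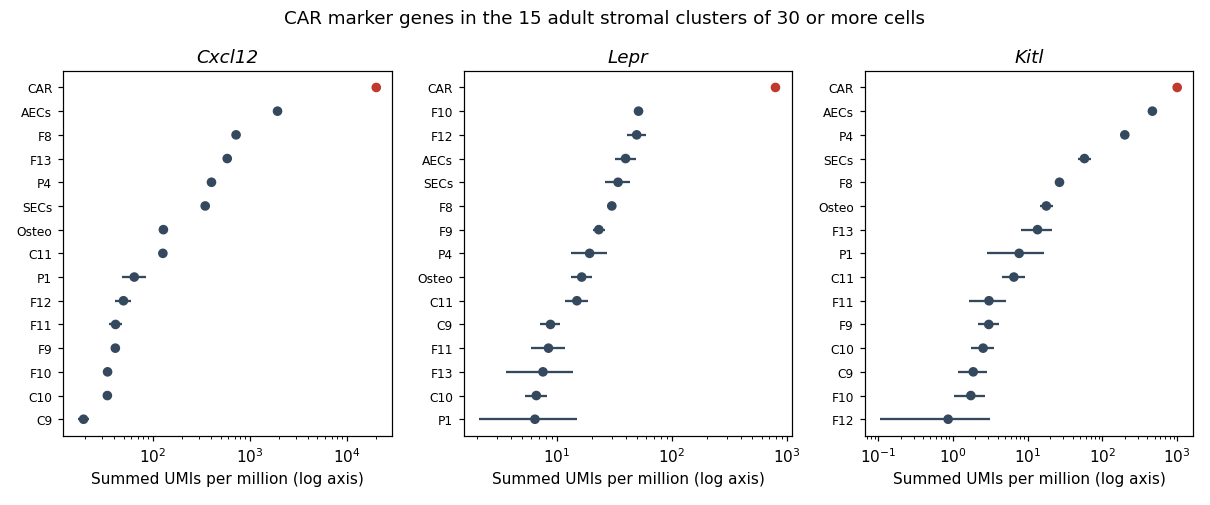
CPM of summed UMIs (horizontal log axis) of Cxcl12, Lepr and Kitl in the 15 adult stromal clusters of at least 30 cells, by deposited code. Points are levels, lines are exact Poisson 95% intervals and CAR cells are red, and CAR cells are highest for each gene, at 20241, 794 and 1005 CPM.

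When every cell was thinned to 1000 UMIs, Cxcl12 was detected in 96.4% of CAR cells (93.9–98.1%) and in 13.7% of the 5875 other cells that were deep enough. The share was 1.75% in C9, a cartilage cluster, and 68.6% in AECs. Lepr was detected in 53.2% of CAR cells and 2.35% of the others, and Kitl in 66.3% and 3.85%. All 3 markers were found together in 39.3% of thinned CAR cells (34.2–44.5%), and 141 of the 146 adult stromal cells with all 3 were CAR cells. Without thinning, Cxcl12, Lepr and Kitl were detected in 99.7%, 91.4% and 93.6% of CAR cells and in 37.0%, 15.8% and 13.2% of the others. A new clustering of the same adult stromal counts gave 24 clusters. The one with the highest mean standardized level of the 3 markers held 363 cells and shared 358 with the deposited CAR code. As it used the same counts and markers, it is no separate check of the code.

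Of 20275 genes, 9398 had at least 50 UMIs in CAR cells or in the others and at least 10 CPM in the higher of them. Among these, 561 were at least 4-fold higher in CAR cells (5.97%) and 493 at least 4-fold lower (5.25%). The median gene was 0.27 higher on the log2 scale in CAR cells, and after division by that median 459 genes were higher and 566 lower. The balance of higher and lower genes also turned when the mean over cells was used (493 higher, 685 lower) or when the other clusters were weighted equally (432 higher, 570 lower), and it was near even without the deepest 5% of cells of each cluster (616 and 620) and without mitochondrial and ribosomal UMIs (538 and 554). CAR cells were the highest of the 15 clusters for 1319 genes (14.0%), and 95 genes stood at least 4-fold above every other cluster.

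The genes with the highest ratios, among those with at least 100 CPM in CAR cells, included several of secreted proteins. Kng1, a kininogen, stood at 341 CPM in CAR cells against 0.394 CPM, a ratio of 867 (619–1251). It was followed by C6, a component of the terminal complement complex, at 139 CPM against 0.180 CPM, and by Adipoq, the adipocyte hormone adiponectin, at 2177 CPM (2125–2230) against 3.12 CPM (2.76–3.51), a ratio of 698. No cluster other than CAR cells exceeded 24.3 CPM of Adipoq. Il1rn, the interleukin-1 receptor antagonist, reached 173 CPM against 0.270 CPM, and Gdpd2, a glycerophosphodiester phosphodiesterase, 860 CPM against 1.69 CPM. Hp, the hemoglobin-binding protein haptoglobin, stood at 5646 CPM (5562–5732) against 13.0 CPM, with P4 next at 58.9 CPM. In thinned cells Hp was detected in 87.7% of CAR cells and 0.715% of the others, and Adipoq in 75.8% and 0.238%. Each of the 30 genes with the highest ratio was highest in CAR cells, and all 30 stayed at least 4-fold higher under 7 other ways of weighting, scaling, filtering or clustering the cells, as the 20 lowest stayed at least 4-fold lower. The 30 ratios were 41.5 or more and the 20 lowest 0.0636 or less, so that this largely follows from how the genes were chosen. Kng1 and Kng2, the Serpina3 genes and the H2-Q genes have near-identical relatives, so that their single values are uncertain.

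**Figure D2:**
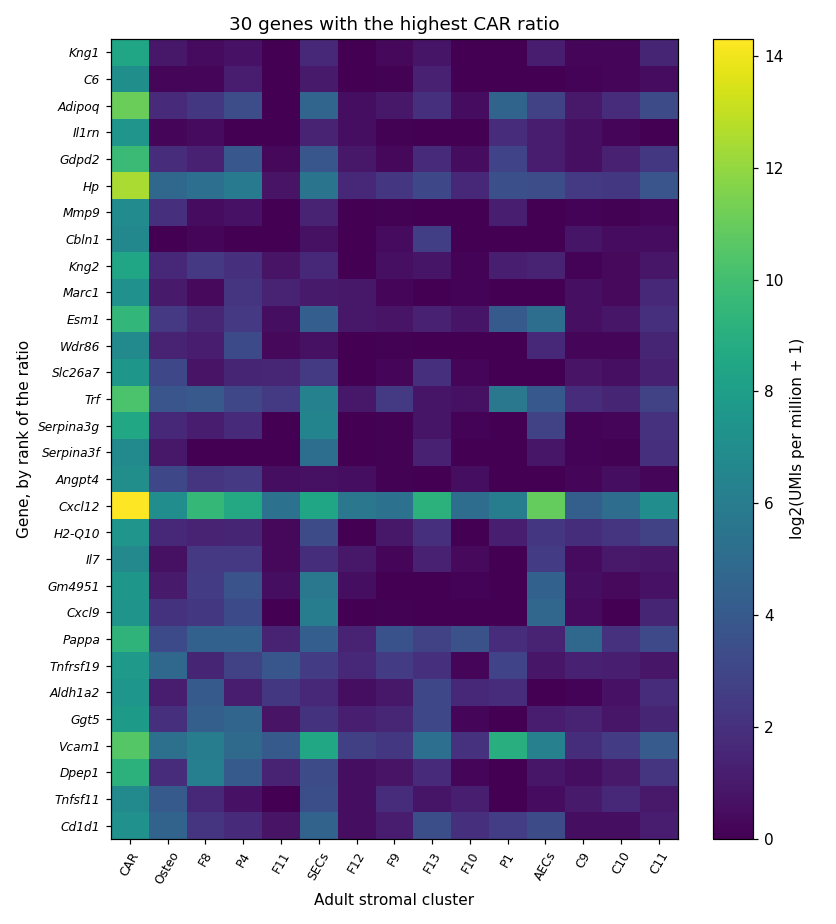
Levels of the 30 genes with the highest CAR ratio (rows, in order of the ratio) in the 15 adult stromal clusters of at least 30 cells (columns), as log2(CPM + 1). The CAR column is the brightest for each gene. Among other clusters Cxcl12 is also seen, most in AECs and F8. Serpina3g, Gm4951 and Cxcl9 are also seen in SECs, and Vcam1 is also seen in P1 and SECs.

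Promoter windows are shown for Cxcl12, Adipoq and 3 further genes of that list whose window held a C/EBP motif, since Cebpa was among the regulators higher in CAR cells. Each is the 250 bases before a gene start in RefSeq on GRCm38.p6, 5′ to 3′ on the strand of the gene, with matches to the C/EBP motif in capitals. Cxcl12 lies at chr6:117168535-117181367 (+) and Adipoq at chr16:23146536-23158028 (+), and none of the 5 windows overlaps an exon annotated by GENCODE. GENCODE places Kng2 at chr16:22985854-23029482 (-), so that its window, set by the RefSeq start, lies inside that span.
Cxcl12 (chr6:117168285-117168534, +): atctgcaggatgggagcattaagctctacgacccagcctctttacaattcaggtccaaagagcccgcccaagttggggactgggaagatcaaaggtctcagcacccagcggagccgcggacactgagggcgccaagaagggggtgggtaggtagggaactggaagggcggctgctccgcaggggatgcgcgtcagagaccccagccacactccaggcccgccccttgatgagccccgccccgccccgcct
Adipoq (chr16:23146286-23146535, +): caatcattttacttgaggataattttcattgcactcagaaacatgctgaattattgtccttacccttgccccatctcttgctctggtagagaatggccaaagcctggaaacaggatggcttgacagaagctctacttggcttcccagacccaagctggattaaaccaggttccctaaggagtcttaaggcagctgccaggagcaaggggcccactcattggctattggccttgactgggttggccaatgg
Gdpd2 (chrX:100729597-100729846, +): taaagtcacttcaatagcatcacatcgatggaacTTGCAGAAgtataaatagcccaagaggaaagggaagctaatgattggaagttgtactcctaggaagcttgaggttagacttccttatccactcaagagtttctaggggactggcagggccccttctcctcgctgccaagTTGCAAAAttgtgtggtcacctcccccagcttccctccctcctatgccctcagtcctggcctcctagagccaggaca
Kng2 (chr16:23029102-23029351, -): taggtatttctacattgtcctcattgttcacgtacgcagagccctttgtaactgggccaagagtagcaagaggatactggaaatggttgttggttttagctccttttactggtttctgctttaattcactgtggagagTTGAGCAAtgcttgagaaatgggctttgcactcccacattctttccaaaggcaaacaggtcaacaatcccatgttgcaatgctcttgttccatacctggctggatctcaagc
Serpina3f (chr12:104214294-104214543, +): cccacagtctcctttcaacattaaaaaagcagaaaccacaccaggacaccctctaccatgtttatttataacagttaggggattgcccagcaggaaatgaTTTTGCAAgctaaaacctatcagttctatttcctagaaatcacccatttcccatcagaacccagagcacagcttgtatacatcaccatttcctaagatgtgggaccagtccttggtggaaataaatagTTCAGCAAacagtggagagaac

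The motif searched was TTGCNNAA on both strands. It was in the windows of 3 of 19 genes of the list and its markers with a promoter in the table (15.8%), against 8.92% of the 7385 tested genes with one and 10.8% of all 27025 genes of the table. The palindromic EBF motif and the forkhead motif TGTTTAC were in 0 of the 19, against 1.19% and 2.65% of the tested genes. A match describes these letters in this window and no site.

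Niche factors were mostly higher. Of 40 listed ligands 34 were tested, 21 of them at least 4-fold higher in CAR cells and 0 at least 4-fold lower, where 5.97% and 5.25% of all tested genes lay, with a median log2 ratio of 2.45 against 0.27 over all tested genes. These lists were drawn up with earlier results of these data known, so that the counts describe them. Cxcl12 and Kitl, ligands as well as defining markers, are higher by the choice of the cluster and are no separate result. Il7, the cytokine that B-cell precursors depend on, stood at 107 CPM against 1.32 CPM, and its next highest cluster was AECs at 4.57 CPM. Vcam1, an adhesion receptor for hematopoietic cells, stood at 1461 CPM against 32.6 CPM, with P1 next at 495 CPM. Csf1 (422 CPM against 52.3 CPM) and Il34 (309 CPM against 14.3 CPM), the ligands of the macrophage receptor CSF1R, were both highest in CAR cells, with ratios of 8.07 and 21.6. Tnfsf11, the osteoclast-inducing ligand RANKL, reached 108 CPM against 2.57 CPM, a ratio of 42.2.

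The angiogenic factors Angpt1, Vegfc and Pgf had ratios of 15.2, 16.5 and 14.4, and the chemokine Cxcl14 stood at 3505 CPM against 257 CPM. Gas6, the ligand of the TAM receptors, stood at 2544 CPM against 180 CPM. Ligands at similar levels in CAR cells and the others were Il6 (ratio 1.17), Wnt5a (1.13) and Tgfb3 (1.00). Tgfb2, the pleiotrophin gene Ptn and Tgfb1 were lower, with ratios of 0.412, 0.453 and 0.789, and none of these reached 4-fold. Igf1, an insulin-like growth factor, stood at 496 CPM against 273 CPM and was highest in F8 at 1006 CPM. Thpo, the thrombopoietin gene, had 3 UMIs in CAR cells, and Igf2 had 0 UMIs, below the minimum for either to be tested. Il15 and Vegfa lay near 4-fold, at 4.43 and 4.32, and fell to 3.68 and 3.59 after division by the median ratio. By that division 18 of the 34 tested ligands were at least 4-fold higher. Spp1, counted both as a ligand and as an osteogenic gene, had 69.3% of its CAR UMIs in 30 cells of low Cxcl12, described below.

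Among 26 transcription factors and related regulators of these cells, 9 were at least 4-fold higher in CAR cells and 2 at least 4-fold lower, against 5.97% and 5.25% of all tested genes. The 2 lower ones are a share near that of all genes. Ebf3 stood at 500 CPM against 13.8 CPM, a ratio of 36.2 (33.5–39.1), with AECs next at 56.9 CPM. Cebpa, a factor of adipocyte and myeloid differentiation, stood at 201 CPM against 10.1 CPM. Pparg, the adipogenic nuclear receptor, stood at 75.7 CPM against 6.02 CPM, although SECs were higher than CAR cells at 178 CPM. Zeb2, Runx1 and Snai2 had ratios of 9.62, 6.85 and 5.00, and Runx2, the osteoblast factor, 4.75. Foxc1 stood at 413 CPM against 96.9 CPM, a ratio of 4.26 (4.01–4.52), and the next highest cluster was C9 at 158 CPM. Ebf1 stood at 966 CPM in CAR cells and nearly as high in F13, at 800 CPM. Runx2, Ebf1 and Foxc1 fell below 4-fold after division by the median ratio, to 3.95, 3.54 and 3.54. Sox9, the chondrocyte factor, and Osr1 were the 2 lower members, with ratios of 0.176 and 0.195, and 0 members were 4-fold lower with clusters weighted equally. Ebf2, a relative of Ebf3, did not separate CAR cells, at 39.0 CPM against 36.3 CPM, and was highest in F8 at 183 CPM.

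The tested receptors were led by Lepr, a defining marker. Of 27 tested, 8 were at least 4-fold higher and 1 at least 4-fold lower in CAR cells, where 5.97% and 5.25% of all tested genes lay, and the median log2 ratio was 1.10 against 0.27 over all genes. The atypical chemokine receptor Ackr4 stood at 341 CPM against 14.4 CPM, a ratio of 23.7, and the related Ackr3, a scavenger of CXCL12, went the other way at 16.0 CPM against 114 CPM. The leukemia inhibitory factor receptor Lifr (ratio 11.7), the growth hormone receptor Ghr (7.35) and Pdgfrb (7.86) were higher. Notch3 had a ratio of 7.47 but was highest in P4, and its ratio was 2.04 with clusters weighted equally. Adrb3, a beta-adrenergic receptor through which sympathetic nerves act, was not tested, as its 35 UMIs in CAR cells lay below the minimum of 50 UMIs. Its ratio of 518 (133–4448) rests on these and on even fewer UMIs in the other cells. Pdgfra was 2.40 times higher in CAR cells than in all others, at 217 CPM against 90.3 CPM, but lower than in F8, at 353 CPM.

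Adipogenic genes were higher in part. Of 21 tested, 7 were at least 4-fold higher in CAR cells and 0 at least 4-fold lower, where 5.97% and 5.25% of all tested genes lay. The median log2 ratio was 0.31, close to the 0.27 of all tested genes. The higher ones included Adipoq, lipoprotein lipase Lpl (2703 CPM against 72.8 CPM, ratio 37.1), Cebpa, Angptl4, Pparg and Apoe. Of the list 7 were at least 2-fold lower, where 10.1% of all tested genes lay. Among them were Fasn and Scd1, enzymes of fatty acid synthesis, with ratios of 0.401 and 0.407, and the fatty acid carrier Fabp4 with 0.409. Fabp4 was at 9003 CPM in AECs, and Plin1 and Cfd, which code for a lipid droplet protein and adipsin of mature adipocytes, had 2 and 11 UMIs in CAR cells and were not tested.

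Osteogenic genes were mixed. Of 23 tested, 7 were at least 4-fold higher and 3 at least 4-fold lower in CAR cells, where 5.97% and 5.25% of all tested genes lay, and the median log2 ratio of 0.43 was close to the 0.27 of all genes. The collagenase Mmp13 (1661 CPM against 65.6 CPM), Limch1, Phex, Runx2, Spp1 and Dmp1 were among the higher ones. Bglap, the osteocalcin gene of mature osteoblasts, stood at 142 CPM against 1194 CPM and at 17437 CPM in the Osteo cluster, and Bglap3 and Cthrc1 were lower as well. Ibsp, coding for bone sialoprotein, was at 5012 CPM in CAR cells and 13349 CPM in Osteo. Part of these values came from few CAR cells, as described below, and the list's median was -0.61 without 30 cells that held little Cxcl12.

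**Figure D3:**
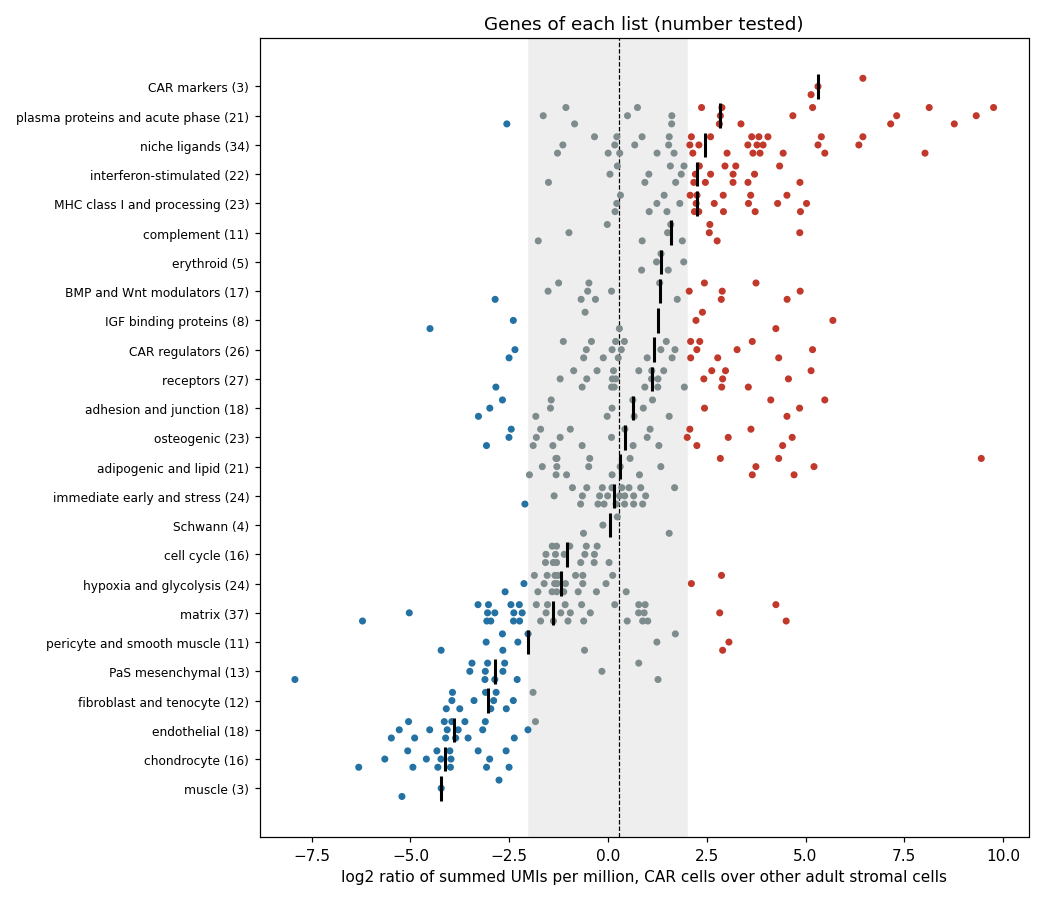
Log2 ratio of CPM, CAR cells over other adult stromal cells, for the tested genes of the gene lists with at least 3 tested members (number tested in parentheses). Points are genes, black bars list medians, the grey band spans less than 4-fold either way, and the dashed line marks the median of all tested genes, 0.27. Niche ligands have a median of 2.45 and chondrocyte genes one of -4.12.

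Of 21 plasma and acute phase proteins 13 were at least 4-fold higher in CAR cells and 1 lower, with a median log2 ratio of 2.84. Over all tested genes 5.97% were at least 4-fold higher and 5.25% lower. Beside Kng1, Il1rn, Hp and Kng2 these included the iron carrier transferrin (Trf, 1224 CPM against 7.73 CPM), angiotensinogen (Agt, ratio 36.2), ceruloplasmin (Cp, 10.3) and Serpina3g (142). F3, the tissue factor gene, was the lower member, with a ratio of 0.169, and 1 of 21 is a share near that of all tested genes. The counts hold for the listed genes only. The alpha-1 antitrypsin genes Serpina1a, Serpina1b and Serpina1d, of a plasma protein, were not on the list. They were among the genes with the lowest ratios, at 0.0262, 0.0419 and 0.0485, and each was highest in C9. In the complement list 4 of 11 tested genes were at least 4-fold higher, among them C2 (28.9), C1ra (6.79) and the C1 inhibitor Serping1 (5.97), and C4b and C1s1 had ratios of 3.01 and 2.84.

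Of 23 genes of MHC class I and its antigen processing, 15 were at least 4-fold higher and 0 lower, where 5.97% and 5.25% of all tested genes lay, with a median log2 ratio of 2.25. H2-K1 stood at 3468 CPM against 177 CPM and H2-D1 at 4836 CPM against 396 CPM, and both were next highest in AECs, at 1114 and 1872 CPM. B2m, the shared light chain, had a ratio of 7.55 and Psmb8, an immunoproteasome subunit, 13.2. Among 22 tested interferon-stimulated genes 13 were at least 4-fold higher, with a median of 2.26, but CAR cells were the highest cluster for 5 of them only. Iigp1, a GTPase of interferon responses, stood at 344 CPM against 16.9 CPM and at 286 CPM in AECs, and Isg15 at 236 CPM against 18.1 CPM and at 253 CPM in AECs. With the other clusters weighted equally, 11 of the MHC class I genes and 8 of the interferon genes were at least 4-fold higher. The MHC class II list had 2 tested members and 1 of them was at least 4-fold lower.

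Binding proteins of secreted growth factors were divided. The insulin-like growth factor (IGF) binding protein Igfbp4 stood at 5809 CPM against 306 CPM, Igfbp5 at 5754 CPM against 1098 CPM, and the protease Pappa, which cleaves IGF binding proteins, at 637 CPM against 12.3 CPM. Igfbp6 was lower, at 279 CPM against 1468 CPM, and Stc2 had 0 UMIs in CAR cells. In all, 4 of 8 tested members were at least 4-fold higher and 2 at least 4-fold lower, where 5.97% and 5.25% of all tested genes lay. The median turned from 1.26 to -0.08 with clusters weighted equally. Of 17 tested modulators of BMP and Wnt signals 7 were at least 4-fold higher and 1 was lower, the latter a share near that of all tested genes. The BMP antagonist Grem1 reached 687 CPM against 29.7 CPM, and the Wnt agonists Rspo2 and Rspo3 had ratios of 29.1 and 7.41, whereas the Wnt antagonist Dkk2 had one of 0.138.

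Matrix genes were mainly lower in CAR cells. Of 37 tested 14 were at least 4-fold lower and 3 at least 4-fold higher, with a median log2 ratio of -1.38. Over all tested genes 5.25% were lower and 5.97% higher at this level, so that the 3 higher ones are a share near that of all genes. The higher ones were tenascin C (Tnc, 1550 CPM against 68.0 CPM), Fbln5 (ratio 19.0) and Col8a1 (7.10). Type I collagen Col1a1 stood at 1858 CPM against 6536 CPM, type III collagen Col3a1 at 768 CPM against 4008 CPM, and fibronectin (Fn1) at 636 CPM against 3496 CPM. Their UMIs were concentrated, as the 36 highest cells of each gene held 86.6% of the Col1a1, 77.2% of the Col3a1 and 88.0% of the Fn1 UMIs, and Col1a1 stood at 313 CPM without its 36. Elastin (Eln) and Mfap4 were the lowest members, at 1.67 and 1.33 CPM. Of 18 tested adhesion and junction genes, 5 were at least 4-fold higher, namely Vcam1, Mme (28.8), the cadherins Cdh2 (23.1) and Cdh11 (17.4), and connexin 43 (Gja1, 5.43). Thy1, Pdpn and Mcam were the 3 lower members.

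The genes with the lowest ratios were mostly those of cartilage. Col10a1, the collagen of hypertrophic chondrocytes, was 50.2-fold lower in CAR cells (7.67 CPM against 385 CPM), and Matn3, Col9a1, Col9a2, Col9a3 and Hapln1 were between 15.9-fold and 33.6-fold lower. All 16 genes of the chondrocyte list, 17 of 18 tested endothelial genes, 11 of 12 fibroblast and tenocyte genes and 10 of 13 genes of Pdgfra+ Sca-1+ mesenchymal cells (PaS cells) were at least 4-fold lower. Over all tested genes 5.25% were at least 4-fold lower and 5.97% higher. Of 11 pericyte and smooth muscle genes 6 were at least 4-fold lower and 2, Notch3 and Mylk, at least 4-fold higher, of which 0 stayed so with clusters weighted equally. Acta2, the smooth muscle actin gene, stood at 12.3 CPM in CAR cells and 9168 CPM in P4.

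Most markers of blood cells were at or near 0 in CAR cells, except for the erythroid genes. Ptprc (CD45), Laptm5, Lcp1 and Spi1 had 0 UMIs, and the 12 blood cell genes summed to 84.0 CPM, within the range of 9.95 to 879 CPM in the other clusters. Fcer1g, an Fc receptor subunit, was the 1 blood cell gene at least 4-fold higher, at 36.3 CPM, but it reached 218 CPM in SECs and its ratio was 1.76 with clusters weighted equally. Muscle genes had 3 tested members, each at least 4-fold lower, Schwann cell genes 4 with 0 past 4-fold, and B lineage genes 1, Ebf1. The neutrophil genes had 0 tested members and summed to 23.3 CPM against 14.3 CPM in the others and 35.5 CPM in F8. Erythroid genes summed to 467 CPM against 181 CPM in the others and 3517 CPM in P4, and 4 of 5 tested members were at least 2-fold higher, where 16.0% of all tested genes lay. At the 4-fold level 0 of these were higher, and 4 were without the deepest 5% of cells. This excess lay among the 30 CAR cells of low Cxcl12 described below, as the list summed to 2348 CPM in them and 161 CPM in the 329 others. Few cells carried it. Of the 400 Hbb-bs UMIs in the 30 cells 394 lay in 8 cells, and 4 of the 359 CAR cells held 3 or more thinned erythroid UMIs. Of 16 tested cell cycle genes 0 were at least 4-fold different either way and 8 were at least 2-fold lower, a direction in which 10.1% of all tested genes lay. At least 4-fold lower were 7 of them without the deepest 5% of cells of each cluster, 6 with the new clustering and 7 without 30 CAR cells of low Cxcl12 described below. Of 24 glycolysis and hypoxia genes 14 were at least 2-fold lower, and the median log2 ratio was -1.20. At the 4-fold level, past which 5.97% of all tested genes were higher and 5.25% lower, 2 were higher, Epas1 (ratio 7.32, 3.18 with clusters weighted equally) and Vegfa, and 2 were lower, Ndufa4l2 and Pkm. The immediate early genes, which also respond to tissue digestion, had a median log2 ratio of 0.15 over 24 genes, with Fos at 5390 CPM against 3038 CPM, Socs3 at 1403 CPM against 436 CPM, and Atf3, the 1 member at least 4-fold lower, at 145 CPM against 625 CPM. That 1 of 24 is a share near that of all tested genes. It became 0 with clusters weighted equally, as a mean over cells, without the deepest 5% of cells and without the 30 cells of low Cxcl12.

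The 3 clusters nearest to CAR cells by correlation of log levels across genes were Osteo (Pearson's r = 0.793), F8 (0.771) and P4 (0.766), and the farthest of at least 30 cells was C11 (0.618). Genes are not independent replicates, and these values describe the profiles. F8 held the highest sum of the PaS list, 27952 CPM against 1792 CPM in CAR cells. Against F8, 445 of 9277 genes were at least 4-fold higher in CAR cells (4.80%) and 425 lower (4.58%). Kng1, Mmp13, Cbln1 and C6 led the higher ones. Mmp13 stood at 1.86 CPM in F8, and Serpina3f had 0 UMIs there and was at least 535-fold higher in CAR cells. Pi16 (440 CPM in F8 and 0.333 CPM in CAR cells), Has1, Cd34, Thy1 and Clec3b were among the genes lowest in CAR cells, and Ccl11 had 0 UMIs in CAR cells and was at least 141-fold lower.

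Against Osteo, where the osteogenic list summed to 175679 CPM against 34655 CPM in CAR cells, 506 of 8566 genes were higher (5.91%) and 259 lower (3.02%). Il1rn, Adipoq, C6, Serpina3c and Kng1 led the higher ones, together with Cyp1b1 (376 CPM against 1.78 CPM), Dpep1 and Il7. Genes of mature bone led the lower ones, with Bglap 123-fold lower, Bglap2 37.8-fold and Tnn 42.9-fold, beside Wnt16 (73.0-fold). Ostn, coding for osteocrin, had 0 UMIs in CAR cells and was at least 107-fold lower. AECs and SECs, the endothelial clusters, were farther off, with 694 of 7994 genes higher (8.68%) and 601 lower (7.52%) in CAR cells than in AECs, and 538 of 7775 higher (6.92%) and 511 lower (6.57%) than in SECs.

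The surface antibodies gave a readout apart from the clustering. The counts of the whole series cover 29 antibodies, of which 20 had no count in adult stroma. Whether those 20 were used on adult stroma is not shown by the counts, so they are not read as negative. In adult stroma 4 had at least 1000 counts, namely Ly6AE (Sca-1), CD31, CD140a (PDGFRA) and CD73. A cell above a centered log-ratio (CLR) of 1 over the library was counted as positive. Ly6AE was positive on 5.85% of CAR cells (3.66–8.80%), 21.2% of the other cells (20.1–22.2%), 54.0% of F8 and 60.2% of AECs. CD31, the endothelial antigen PECAM-1, was positive on 7.80% of CAR cells (5.25–11.1%) and on 98.5% of AECs and 96.9% of SECs. CD140a was positive on 3.90% of CAR cells (2.15–6.46%), 19.5% of the others (18.5–20.6%) and 47.1% of F8. CD73 was positive on 8.08% of CAR cells (5.48–11.4%) and 26.2% of the others (25.1–27.4%). CAR cells thus ranked 10th, 8th, 13th and 14th of 15 clusters for Ly6AE, CD31, CD140a and CD73. In Osteo, the nearest cluster by transcripts, the shares were 6.37%, 5.26%, 9.42% and 18.0% for the same antibodies. The ranks depend on the level, as CAR cells ranked 13th, 7th, 10th and 13th at a CLR of 1.5. CD140a counts were low, with a median of 3 per cell in CAR cells and 4 in the others.

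**Figure D4:**
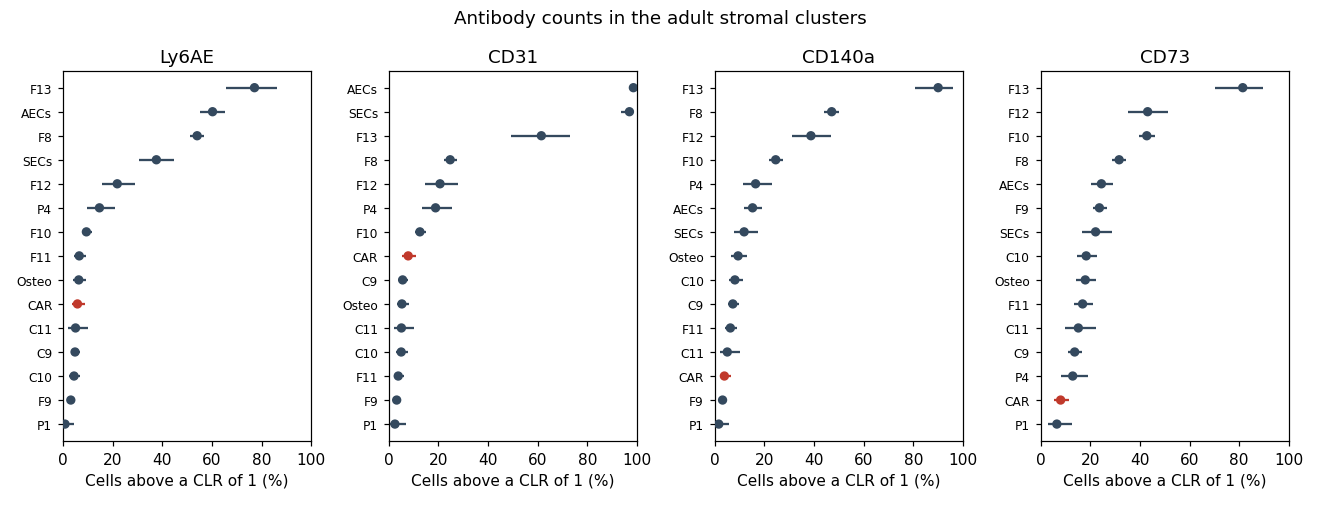
Share of cells above a centered log-ratio of 1 (horizontal axis, percent) for the 4 antibodies with at least 1000 counts in the adult stromal clusters of at least 30 cells. Points are shares, lines are exact Clopper-Pearson 95% intervals and CAR cells are red, at 5.85% for Ly6AE, 7.80% for CD31, 3.90% for CD140a and 8.08% for CD73.

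In a gate without CD140a and Ly6AE lay 92.5% of CAR cells (89.2–94.99%) and 71.9% of the others, and 7.25% of the 4580 cells of that gate were CAR cells. This was not particular to CAR cells, as the share was 97.5% in P1, 95.4% in F9, 92.8% in C11 and 87.3% in Osteo. It was lowest in F13 (7.14%), F8 (37.1%) and AECs (38.5%). The PaS gate, CD140a+ Ly6AE+, held 2.23% of CAR cells (0.967–4.34%) and 12.6% of the others. CAR cells carried fewer antibody counts in all, with a median of 38 per cell against 59.5, and the part of this in the shares was not tested. Within CAR cells Nt5e, the CD73 gene, was at 107 CPM in CD73-positive and 29.2 CPM in negative cells, with UMIs in 16 of 29 and 52 of 330 cells. Ly6a was at 384 CPM (317–461) in Ly6AE-positive and 43.3 CPM (35.8–51.9) in negative CAR cells, but 7 of the 21 positive cells held all of its 115 UMIs there, and 1 of them held 44. Pecam1 had 11 UMIs in the 28 CD31-positive CAR cells, 10 of them in 1 cell, and 2 UMIs in the 331 negative ones. Pdgfra was at 129 CPM (87.9–184) in the 14 CD140a-positive CAR cells and 225 CPM (207–243) in the 345 negative ones, although 12 of the 14 and 251 of the 345 held a UMI of it. Among the other adult cells Pdgfra was at 183 CPM in CD140a-positive and 66.1 CPM in negative cells.

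The genes that varied most among CAR cells included several of bone and cartilage. After thinning, the variance over mean among the 359 cells had a median of 1.05 over 1650 genes and was highest for Spp1 (91.1), the osteopontin gene, followed by Prg4 (32.3), Cytl1, Dcn, Col1a1, Cilp, Col2a1, Hbb-bs, 1500015O10Rik and Malat1. For Cxcl12 it was 5.77, and the quartiles of its level per cell were 16882 and 31340 CPM around a median of 25520 CPM. The 36 cells with the most Spp1 held 86.8% of its UMIs, whereas the 36 highest cells held 19.5% of the Cxcl12 UMIs and 31.6% of those of Adipoq. Cxcl9, an interferon-induced chemokine, lay 94.6% in 36 cells, and its pooled level without them was 9.98 CPM instead of 168 CPM.

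A range of 30 CAR cells with less than 5000 CPM of Cxcl12 (8.36%, 5.71–11.7%) differed from the 329 others, and 7 cells lay between 4000 and 6000 CPM. This bound was chosen after the values were seen, and the range is a cut through a continuous level and no cell type. These 30 cells held 69.3% of the Spp1 UMIs of CAR cells, 67.5% of those of Mmp13 and 97.2% of those of Mmp9, the gelatinase B gene. For Mmp9 they were 350 of 360 UMIs, in 6 cells, so that its ratio of 344 over other adult stromal cells was 11.1 without the 30 cells. Spp1 stood at 45695 CPM in the 30 cells and 3279 CPM in the 329, Mmp13 at 8027 and 628 CPM, and Alpl, the alkaline phosphatase of osteoblasts, at 1463 and 281 CPM. Ibsp was nearly even, at 6095 and 4836 CPM.

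Adipoq went the other way, at 38.2 CPM (21.8–62.0) in the 30 cells and 2524 CPM (2463–2586) in the 329, as did Hp (294 and 6515 CPM), Ebf3 (47.7 and 573 CPM), Lepr (100 and 906 CPM) and Kitl (93.1 and 1152 CPM). The osteogenic list summed to 93046 CPM in the 30 cells and 25176 CPM in the 329, and the adipogenic list to 1983 and 10278 CPM. Other marker lists differed as well, since the erythroid list summed to 2348 and 161 CPM, the cell cycle list to 742 and 121 CPM, the endothelial list to 210 and 99.2 CPM, and the immediate early and stress list, which also responds to handling, to 8793 and 24028 CPM. Few cells were rich in the first 3 lists. Of the 359 CAR cells, 4 held 3 or more thinned UMIs of the erythroid list, 3 of the cell cycle list and 2 of the endothelial list. The 30 cells held a median of 13119.5 UMIs against 6897, and the part of depth, handling or RNA from other cells in these values was not tested. Without the 30 cells the Spp1 ratio to other adult stromal cells was 1.497 instead of 4.20, that of Mmp13 9.57 instead of 25.3 and that of Lifr 7.69 instead of 11.7. Dmp1 turned from 4.01 to 0.84, and the median log2 ratio of the erythroid list turned from 1.34 to -0.07. Cxcl12, Lepr and Kitl then had ratios of 101, 40.3 and 45.7, and 582 genes were at least 4-fold higher and 559 lower. The Cxcl12 ratio had to rise, as the cells were removed by their Cxcl12. Lepr and Kitl varied with Cxcl12 across CAR cells (Spearman's rho 0.31 each), so that their rise is no separate result.

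**Figure D5:**
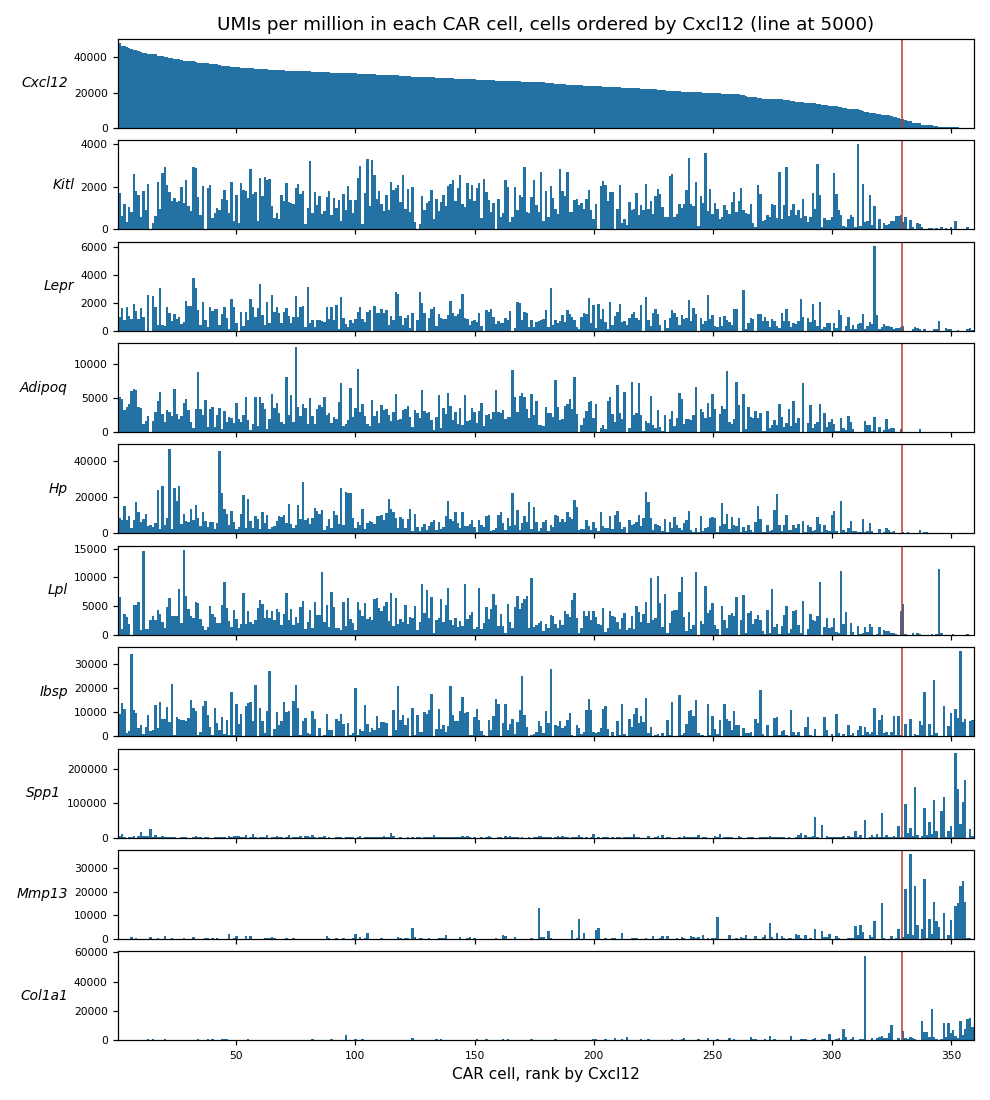
CPM of 10 genes (rows, linear axes from 0) in each of the 359 CAR cells, ordered from the highest to the lowest Cxcl12, with a red line at 5000 CPM of Cxcl12. Adipoq, Hp, Kitl and Lepr fall away to the right of the line, Spp1, Mmp13 and Col1a1 are mostly to its right or just before it, and Ibsp is on both sides.

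Across all 359 thinned cells, Spearman's rho between the shares of UMIs from the adipogenic and the osteogenic list was -0.31. The share of the 3 CAR markers had a rho of 0.51 with the adipogenic list, -0.21 with the osteogenic list and -0.37 with the number of UMIs in the cell. Between Cxcl12 and the single genes examined rho ran from -0.36 (Col1a1) to 0.46 (Hp), with 0.45 for Adipoq, -0.23 for Alpl, -0.19 for Spp1 and -0.03 for Sp7. These cells share a library and their shares a total, so these values are descriptions.

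No cluster of the fetal and newborn stromal libraries reached the level of adult CAR cells in Cxcl12, Lepr or Kitl. Stage and library cannot be told apart, as each stage had 1 stromal library. The 3 markers were found together in 0 of 8194 thinned cells at E16.5, 2 of 6474 at E18.5, 2 of 12613 at P0 and 146 of 6234 in the adult (2.34%, 1.98–2.75%). At E16.5 this allows a share of cells with UMIs of all 3 of up to 0.0450% by the exact interval, or 0.0366% as 3 counts of the total. The call of all 3 together misses cells that express the markers, since 39.3% of CAR cells themselves met it. Cxcl12 stood at 47.9 CPM at E16.5, 42.1 CPM at E18.5, 54.9 CPM at P0 and 885 CPM in the adult library, and at 231 CPM in the adult library without CAR cells. For Lepr the values were 8.28, 8.77, 11.5 and 47.7 CPM, and 22.5 CPM without CAR cells. Kitl differed least, at 19.95, 23.4, 18.2 and 57.2 CPM, and at 25.2 CPM without CAR cells, a level close to that at E18.5.

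The 30 genes with the highest CAR ratio were chosen for their level in adult CAR cells, so that a higher sum in the adult library follows from the choice and the sums are a description. Over these genes the libraries stood at 110 CPM (E16.5), 103 CPM (E18.5), 142 CPM (P0) and 1564 CPM (adult), and CAR cells alone at 37334 CPM. Without CAR cells the adult library kept 356 CPM. Cxcl12 is 1 of the 30 genes and made up most of the adult sums, 20241 CPM of that in CAR cells, 885 CPM of that in the adult library and 231 CPM of that without CAR cells. The cluster with the most Lepr and Kitl outside the adult was F3ii at E18.5, with 52.5 and 410 CPM, and its Cxcl12 stood at 210 CPM. Cxcl12 was highest outside the adult in the E18.5 endothelial cluster, at 891 CPM. Adipoq reached at most 0.77 CPM, 0.232 CPM and 2.14 CPM in any cluster at E16.5, E18.5 and P0. The cluster whose profile was nearest to adult CAR cells had a Pearson's r of 0.698 at E16.5, 0.703 at E18.5 and 0.732 at P0, below the 0.793 of the adult Osteo cluster. The P0 value was close to that of adult F11 (0.733) and above those of adult SECs (0.710), AECs (0.663) and C11 (0.618). These genes were chosen on adult counts, and only the adult values were taken within 1 library.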

How the data were processed

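The authors deposited raw UMI counts per gene and cell, raw antibody counts of the same cells, and a table with each cell's library and cluster code, in which the mitochondrial share is a fraction. Per the study's methods and the submitters' notes, reads were counted with Cell Ranger 3.1.0 on mm10 and analysed with Seurat 3.1.5 in R 4.0. The authors removed cells with few UMIs or a high mitochondrial share, and the cells with the most genes or UMIs as putative doublets. No further doublet caller was run here. Contaminating blood cells were taken out by the authors.

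UMIs were summed over the CAR cells and over the other adult stromal cells and turned into CPM. Genes with at least 50 counts on either side and 10 CPM in the higher were tested for a 4-fold ratio, which is a rule of size and no significance test. Ratios have exact conditional 95% intervals, a group at 0 was set to 3 counts, and shares were computed after thinning to 1000 UMIs. Antibody counts were normalized by CLR per antibody over the library. A new clustering used 2000 variable genes, 30 components, 20 neighbours and Leiden resolution 1. Python 3.11.15, numpy 2.4.6, pandas 2.3.3, scipy 1.17.1, scanpy 1.11.5, leidenalg 0.10.2 and matplotlib 3.10.9 were used. On simulated counts for CAR cells against other adult stromal cells (20275 genes, 200 changed 8-fold), 100% of the genes made higher and 99% of those made lower passed 4-fold, and 0 of 8330 unchanged ones did. The simulated sums had counting error only and no spread between cells. They therefore cannot show how far a ratio rests on few cells.

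Genes were named from 29 lists and as the 30 highest and 20 lowest ratios with at least 100 CPM on the higher side, the 10 highest and lowest against F8 and Osteo, and the 10 with the largest variance over mean. Mitochondrial, ribosomal protein and immunoglobulin genes and Gm42418 were left out of these ranks. The members and lists were chosen with earlier results of these data known. Alternatives changed the cells, weighting, scaling, thinning, minimum, fold, CLR level and clustering. A few list members are not reported here.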

Additional observations from a re-analysis of the deposited data

How the results depend on the processing

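No paired analysis was possible because the comparison rests on 1 adult stromal library. Differences between CAR cells and others therefore cover counting error only, and depth limits what can be said of genes with few UMIs in 359 cells. The alternative without clusters coded as blood or undefined was not run, because the adult codes hold none. Unless given here, the ratios of the 3 markers, the counts over all genes, the shares, the antibody shares and the stage levels moved by less than counting error or by less than 1.5 times for counts, under the alternatives tried, including 1 added after seeing the data (without CAR cells under 5000 CPM of Cxcl12). Where a value moved, the cause was not tested.

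The Cxcl12 ratio of 87.5 was 62.5 with each other cluster weighted equally, 65.5 as a mean over cells, 96.1 without the deepest 5% of cells of each cluster, 83.1 without mitochondrial and ribosomal UMIs, 72.7 after division by the median ratio and 101 under the added alternative. The Lepr ratio of 35.3 was 38.9 without the deepest cells, 29.3 by the median and 40.3 under the added alternative. The Kitl ratio of 39.8 was 17.3 with equal weights, 22.1 as a mean over cells, 44.3 without the deepest cells, 33.1 by the median and 45.7 under the added alternative. The added alternative removes cells by their Cxcl12, so that its higher Cxcl12 ratio follows from the choice.

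The 561 higher and 493 lower genes became 1355 and 894 with no minimum beyond 1 count, 212 and 127 at 100 CPM, 1508 and 946 at 2-fold and 242 and 218 at 8-fold. Among the median log2 ratios of the lists, the sign turned with equal weights for IGF binding proteins (-0.078) and blood cell genes (-1.58), by the median ratio for immediate early genes (-0.12), under the added alternative for osteogenic (-0.61) and erythroid genes (-0.070), and under 4 settings for Schwann cell genes, which lay near 0 (lowest -0.21). Dmp1 turned under the added alternative (0.84). Counts of list members past 4-fold changed by more than 1 gene and over 1.5 times in several lists. Higher osteogenic genes were 4 instead of 7 by the median ratio, and lower ones were 7 instead of 3 without the deepest cells and 5 as a mean over cells, by the median ratio and under the added alternative. Lower cell cycle genes were 7 instead of 0 without the deepest cells and under the added alternative and 6 with the new clustering, and higher erythroid genes 4 instead of 0 without the deepest cells. With equal weights, higher interferon genes were 8 instead of 13, higher pericyte genes 0 instead of 2, lower regulators 0 instead of 2, and lower niche ligands and adipogenic genes 2 each instead of 0. Lower adipogenic genes were also 2 and lower muscle genes 6 instead of 3 as a mean over cells, and lower glycolysis and hypoxia genes 4 instead of 2 without the deepest cells and by the median ratio.

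Without thinning, 99.7%, 91.4%, 93.6% and 87.2% of CAR cells held a UMI of Cxcl12, Lepr, Kitl and all 3, and at 2000 UMIs 72.7%, 80.7% and 61.1% held Lepr, Kitl and all 3. CAR cells positive for Ly6AE, CD31, CD140a and CD73 were 13.9%, 15.0%, 20.1% and 20.6% at a CLR of 0.75, 1.39%, 3.90%, 1.67% and 2.23% at 1.5, and 38.2%, 22.01%, 13.6% and 11.7% with the CLR over the 4 stromal libraries. At each level, and for each antibody, the share was lower in CAR cells than in the other cells.

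Stage levels as a mean over cells were (E16.5 first, then E18.5, P0 and adult) 58.6, 61.7, 67.4 and 1704 CPM of Cxcl12, 9.19, 10.6, 12.8 and 79.1 CPM of Lepr, and 22.7, 31.4, 21.6 and 120 CPM of Kitl. Without mitochondrial and ribosomal UMIs they were 71.6, 58.6, 78.2 and 1053 CPM of Cxcl12, 12.4, 12.2, 16.3 and 56.7 CPM of Lepr, and 29.8, 32.6, 25.9 and 68.1 CPM of Kitl.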
